A study of Mus musculus with 8 samples.

Results

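TCF3-ZNF384 was compared with TAF15-ZNF384 in mouse pre-B cells, so that the effect of one fusion protein was set directly against that of the other rather than against a control. The comparison rests on 4 of the 8 libraries of the series, chosen by their labelled construct, with 2 libraries a side. All 8 cultures were pre-B cells grown from bone marrow of C57BL/6 Arf-/- mice, carried a lentiviral construct and were sorted for GFP. The 4 groups were TCF3-ZNF384-HA, TAF15-ZNF384-HA, full-length ZNF384-HA and the empty vector, and every group shared the loss of Arf. RNA of the sorted cells went into stranded total RNA libraries, and whether a culture came from 1 animal or several is not stated.

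ZNF384 is a zinc finger transcription factor that binds stretches of A bases in DNA. In B cell precursor and mixed phenotype leukaemia its gene is joined to that of a partner, and most of ZNF384 follows the amino-terminal part of the partner in the fusion protein. TCF3 encodes E12 and E47, the E proteins that switch on early B cell genes through the E-box, and its amino-terminal part holds activation domains. TAF15 belongs to a small family of RNA-binding proteins, whose amino-terminal low-complexity domain also activates transcription when it is fused to a DNA-binding partner. Pre-B cells have rearranged their heavy chain gene, display it with the surrogate light chain as the pre-B cell receptor, and depend on interleukin 7.

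The TCF3-ZNF384 libraries held 9583008 and 17876711 counts, and the TAF15-ZNF384 libraries 9381954 and 9963494. Pre-B cell genes were abundant in all 4 libraries: Cd79a was at 746 and 729 CPM (read counts scaled to library size) with TCF3-ZNF384 against 547 and 552 with TAF15-ZNF384, and Pax5 was at 978 and 1024 CPM against 1142 and 1053. The myeloid genes Lyz2, Mpo and Csf1r, the T and NK cell genes Cd3e and Nkg7 and the erythroid gene Gata1 were at 0.323 CPM or less in every library. Other genes of such lists were detected: Pecam1, an endothelial marker that B cells also express, was at 51.1 and 57.3 CPM with TCF3-ZNF384 against 49.9 and 47.4 with TAF15-ZNF384, and Sdc1, a plasma cell marker, at 22.5 and 23.5 CPM against 31.1 and 34.1. The stromal gene Col1a1 was at 0.828 and 0.485 CPM against 0.326 and 0.212. Their part in the results was not tested. Replicates correlated at 0.987 within TCF3-ZNF384 and 0.977 within TAF15-ZNF384, against 0.966 to 0.976 between the fusions; these are correlations across genes, which are not independent replicates. The 5 most abundant non-coding genes took 18.5 and 24.5% of counts with TCF3-ZNF384 and 28.1 and 29.6% with TAF15-ZNF384, and their share did not overlap between the fusions.

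Reads assigned to Zfp384, the mouse ZNF384 gene (chr6:124959163-124987883 of mm9), were at 511 and 450 CPM with TCF3-ZNF384, 185 and 162 with TAF15-ZNF384, 51.1 and 90.2 with full-length ZNF384 and 24.0 and 21.6 with the empty vector. The construct sequences are not given in the sources used here, and the stretch of ZNF384 they share with the mouse gene is unknown, so these values give the amount of each fusion transcript only roughly. The difference between the fusions was 1.47 ± 0.24 on the log2 scale (SE, adjusted p = 0.00772, edgeR), and it missed the threshold without TCF3-ZNF384 replicate 1 (1.38, adjusted p = 0.0569) and without TAF15-ZNF384 replicate 2 (1.38, adjusted p = 0.0571). The partner in the fusion and the amount of fusion transcript changed together between the groups and cannot be told apart. Neither mouse partner gene passed the test between the fusions, with Tcf3 at 0.10 ± 0.11 (adjusted p = 0.629) and Taf15 at −0.13 ± 0.13 (adjusted p = 0.586). Construct reads could add to these counts as well, so the endogenous transcripts were not measured apart. Cdkn2a, whose counts do not separate Arf from p16, was at 94.6 and 100 CPM against 59.5 and 66.6, a difference of 0.63 ± 0.13 (adjusted p = 0.00695) that missed the threshold without TCF3-ZNF384 replicate 2 (adjusted p = 0.0733) and without TAF15-ZNF384 replicate 1 (adjusted p = 0.095).

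The fusions differed in 1308 of 12970 tested genes, or 10.1%, at an adjusted p of 0.05 or less (edgeR quasi-likelihood test, Benjamini-Hochberg adjustment). Of these, 767 genes (5.91% of those tested) were higher with TCF3-ZNF384 and 541 (4.17%) were lower. Most differences were modest, with a median size of 0.63 on the log2 scale among the genes called. At least 2-fold differences were found in 272 genes (2.1%), and 204 of them were higher with TCF3-ZNF384 and 68 lower. At least 4-fold, the counts were 62 higher and 8 lower. In all 1308 genes the libraries of the fusions did not overlap, but the same held for 7420 (57.2%) of all genes tested. The 95% interval of the difference lay within 2-fold in 9295 genes, or 71.7%.

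The balance of higher and lower genes depended on scaling, with 58.6% of called genes higher in the analysis reported here and 85.1% with total-count scaling. That scaling called 1989 genes, 1693 higher and 296 lower with TCF3-ZNF384, and set the median of all genes at 0.169 on the log2 scale, against 0.001 here. Leaving out TCF3-ZNF384 replicate 1 or 2 left 506 and 646 genes, and leaving out TAF15-ZNF384 replicate 1 or 2 left 579 and 371. No gene that was called changed sign in any of the 14 alternative analyses. All of them reused the same libraries, which did not overlap between the fusions in any called gene. A reversal was therefore unlikely from the outset. Against the empty vector, which both fusions share as a control, TCF3-ZNF384 differed in 4317 genes (33.3%) and TAF15-ZNF384 in 1430 (11%). These 2 counts were not matched for depth. Library depth and Zfp384 level differed between the fusions. With every library thinned to the depth of the shallowest, the comparison between the fusions called 1463 genes, 822 higher and 641 lower. The part of depth in the 2 counts against the empty vector was not tested, nor was the part of Zfp384 level in any count. Whether a gene's level reflects fewer cells that express it or less RNA per cell cannot be told apart in bulk RNA.

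**Figure D1:**
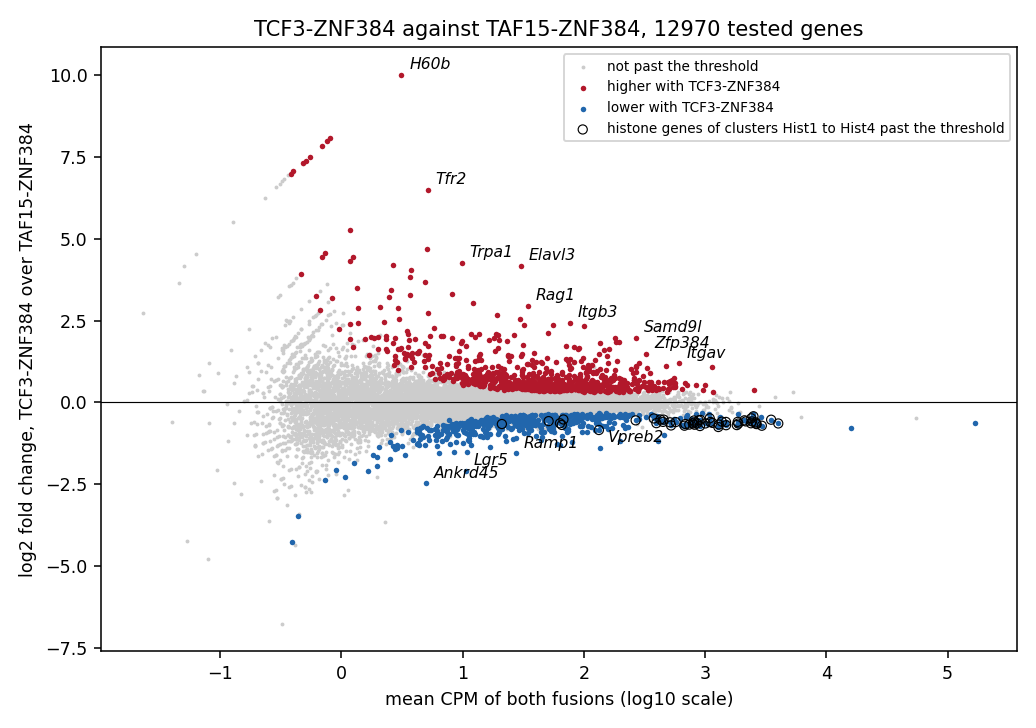
Log2 fold change of TCF3-ZNF384 over TAF15-ZNF384 (vertical) against the mean CPM of both fusions (horizontal, log10) for each tested gene with a count in either fusion. Red points are the 767 genes higher with TCF3-ZNF384 and blue points the 541 lower; black rings mark called histone genes, most of which sit together at high CPM below 0, while the largest differences are above 0. Genes without a count in one fusion, such as H60b, are drawn at the fitted value, which is no bound.

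Several of the genes with the largest differences had few counts with the empty vector. Elavl3, a neuronal RNA-binding protein gene (chr9:21819449-21856467), was at 56.1 and 58.8 CPM with TCF3-ZNF384, 3.91 and 2.54 with TAF15-ZNF384, 0.711 and 0.655 with full-length ZNF384 and 1.56 and 0.766 with the empty vector. Both TCF3-ZNF384 libraries stood far above the other 6. The difference between the fusions was 17.8-fold, or 4.16 ± 0.22 on the log2 scale (adjusted p = 1.21e-07). Trpa1, which encodes an irritant-gated cation channel (chr1:14862729-14908943), was at 20.7 and 16.6 CPM against 0.978 and 0.952, a 19.1-fold difference (4.26 ± 0.30, adjusted p = 1.16e-06).

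Several other genes were close to the floor of detection with TAF15-ZNF384. H60b, a ligand of the NK cell receptor NKG2D, had 84 and 88 counts with TCF3-ZNF384 and none in either TAF15-ZNF384 library, and was at least 36.3-fold higher, taking 3 counts over the group as the floor (adjusted p = 0.000411). Tfr2, a transferrin receptor that takes part in iron sensing, had 287 counts over the TCF3-ZNF384 libraries against 2 over the TAF15-ZNF384 libraries, a ratio of 90.9 with an exact binomial 95% interval of 24.9 to 754, which covers counting error only. Cubn, the intrinsic factor receptor cubilin, was at 9.20 and 10.2 CPM against 0.435 and 0.317 (4.68 ± 0.46, adjusted p = 1.59e-05). Exons of Cubn, Phkg1, Mfsd4 and Foxp3 overlap other genes. The strand setting of the counting is not given, so their counts may hold reads of a neighbour. The same limit holds for Pax5, Xrcc6, Vpreb1, Icam1, Itga4, Foxo1, Gfi1, Shmt2, Bcl2, Cd55 and Dgka, whose exons overlap genes of the opposite strand.

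Slit3, a ligand of Robo receptors, was 4.04 ± 0.57 higher on the log2 scale and the chemokine receptor gene Ccr4 3.81 ± 0.45 higher. Both rested on few counts with TAF15-ZNF384: without TAF15-ZNF384 replicate 1 the values were 3.27 for Slit3 and 4.42 for Ccr4, and without TAF15-ZNF384 replicate 2 they were 5.97 and 3.39. The prokineticin gene Prok1 was at 8.84 and 9.15 CPM against 1.52 and 1.16, and Foxp3, the transcription factor of regulatory T cells, was at 5.43 and 7.97 CPM against 0.870 and 0.529. In Tns1, which encodes the focal adhesion protein tensin, the difference of 2.55 ± 0.49 (adjusted p = 0.00388) missed the threshold without either TCF3-ZNF384 library (adjusted p = 0.0533 and 0.0502 without replicate 1 and 2) and without TAF15-ZNF384 replicate 2 (adjusted p = 0.061).

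Among genes with high counts, Rilpl2, which encodes a protein that binds Rab GTPases, was at 309 and 305 CPM with TCF3-ZNF384 against 86.7 and 84.7 with TAF15-ZNF384 (1.84 ± 0.10, adjusted p = 1.32e-07). Samd9l, an interferon-inducible gene that restrains growth (chr6:3322257-3349571), was at 423 and 438 CPM with TCF3-ZNF384, 114 and 106 with TAF15-ZNF384, 26.8 and 31.7 with full-length ZNF384 and 28.1 and 31.7 with the empty vector. The TAF15-ZNF384 libraries lay between TCF3-ZNF384 and the controls without overlap. Over the shared empty vector the values were 3.85 ± 0.12 with TCF3-ZNF384 and 1.88 ± 0.11 with TAF15-ZNF384, and between the fusions 1.97 ± 0.11 (adjusted p = 1.7e-07). Mctp2, which encodes a calcium-sensing membrane protein, and Cacna1i, a T-type calcium channel gene, were higher by 2.37 ± 0.14 and 2.12 ± 0.14. Arhgap18, a GTPase-activating protein gene, was higher by 1.73 ± 0.12.

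Sequences upstream of 6 genes with large differences are shown with 2 kinds of DNA word, the A run bound by ZNF384 and the E-box bound by E proteins; the genes were picked after their values were seen. E proteins bind the E-box through a carboxy-terminal domain, and whether the TCF3-ZNF384 construct keeps that domain is not given in the sources used here. Each line gives the 250 bases before the first RefSeq start in GRCm38.p6, 5′ to 3′ on the gene's strand. Capitals mark CAGCTG or CAGGTG and A runs of AAAAAAAA or longer, each on either strand. Elavl3, Rag1 and Vpreb2 held both E-box words, Samd9l and Ramp1 held CAGGTG, and A runs were in Il2ra and Samd9l. The first 4 genes were higher and the last 2 lower with TCF3-ZNF384.
Elavl3, chr9:22052024-22052273, minus strand: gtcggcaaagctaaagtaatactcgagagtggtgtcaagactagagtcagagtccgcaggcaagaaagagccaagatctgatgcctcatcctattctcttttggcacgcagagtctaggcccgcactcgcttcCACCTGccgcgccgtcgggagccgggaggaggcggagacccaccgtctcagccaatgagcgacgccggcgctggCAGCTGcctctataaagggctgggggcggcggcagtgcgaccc
Rag1, chr2:101649533-101649782, minus strand: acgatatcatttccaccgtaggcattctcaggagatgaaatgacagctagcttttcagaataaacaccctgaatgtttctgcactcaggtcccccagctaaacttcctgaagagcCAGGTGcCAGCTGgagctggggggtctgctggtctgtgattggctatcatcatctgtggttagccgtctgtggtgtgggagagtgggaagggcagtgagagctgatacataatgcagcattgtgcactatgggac
Il2ra, chr2:11642542-11642791, plus strand: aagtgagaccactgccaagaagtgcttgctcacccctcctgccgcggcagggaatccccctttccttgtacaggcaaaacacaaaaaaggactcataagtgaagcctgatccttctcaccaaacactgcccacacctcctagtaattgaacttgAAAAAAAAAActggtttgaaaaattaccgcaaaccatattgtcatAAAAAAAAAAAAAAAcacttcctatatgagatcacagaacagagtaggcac
Samd9l, chr6:3399572-3399821, minus strand: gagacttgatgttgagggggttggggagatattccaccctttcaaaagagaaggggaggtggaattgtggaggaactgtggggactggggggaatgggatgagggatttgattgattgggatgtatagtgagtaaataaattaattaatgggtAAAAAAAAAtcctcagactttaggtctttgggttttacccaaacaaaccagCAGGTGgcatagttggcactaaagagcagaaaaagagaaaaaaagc
Vpreb2, chr16:17980315-17980564, plus strand: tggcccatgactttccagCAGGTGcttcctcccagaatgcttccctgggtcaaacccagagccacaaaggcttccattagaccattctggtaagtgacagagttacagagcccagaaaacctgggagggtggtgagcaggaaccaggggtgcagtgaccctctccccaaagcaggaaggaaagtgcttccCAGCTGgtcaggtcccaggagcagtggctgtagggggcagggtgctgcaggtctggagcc
Ramp1, chr1:91179572-91179821, plus strand: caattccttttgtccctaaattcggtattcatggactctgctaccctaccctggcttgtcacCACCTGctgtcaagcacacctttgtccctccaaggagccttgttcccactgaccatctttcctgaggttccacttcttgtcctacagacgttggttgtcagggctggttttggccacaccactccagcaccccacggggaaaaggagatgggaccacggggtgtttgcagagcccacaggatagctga

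Of all 27025 promoters of this length in the RefSeq table, 12.8% held CAGCTG, 17.1% held CAGGTG and 7.22% held AAAAAAAA on either strand. Among tested genes with an entry the shares were 11.3, 14.7 and 5.57%. A match describes the letters of this window and is not a binding site. An entry was found for 9041 of the 12970 tested genes (69.7%), for 75.5% of the higher and for 69.1% of the lower genes. These are under 80%, so the shares counted in higher and lower genes are void as a comparison and are not reported.

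V(D)J recombination assembles antigen receptor genes, and its list gave 3 of 15 members higher and 0 lower with TCF3-ZNF384, against 5.91 and 4.17% over all genes, with a median of −0.01. Rag1, which with Rag2 forms the recombinase (chr2:101478439-101489658), was at 67.6 and 55.1 CPM with TCF3-ZNF384, 6.63 and 9.31 with TAF15-ZNF384, 0.138 and 0.218 with full-length ZNF384 and 0.547 and 0.202 with the empty vector. The TCF3-ZNF384 libraries were the highest and the TAF15-ZNF384 libraries lay between them and the controls without overlap. Rag1 was 7.65-fold higher with TCF3-ZNF384 than with TAF15-ZNF384 (2.94 ± 0.19, adjusted p = 6.45e-07). It shares exon sequence with B230118H07Rik, as does Rag2, and that part of its counts was not separated.

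Rag2 was at 1.10 and 1.13 CPM with TCF3-ZNF384 against 1.96 and 1.37 with TAF15-ZNF384 and did not pass the test (−0.57 ± 0.58, adjusted p = 0.611). Dntt, the terminal transferase that adds untemplated bases at the joins, was at 60.7 and 53.5 CPM against 23.3 and 16.9 (1.5 ± 0.29, adjusted p = 0.0165). The Dntt call was lost when TCF3-ZNF384 replicate 1 (adjusted p = 0.111), TCF3-ZNF384 replicate 2 (0.073) or TAF15-ZNF384 replicate 2 (0.111) was left out, and with total-count scaling (0.0574). The remaining call, Xrcc6 or Ku70, was small at 0.46 ± 0.12 and was lost when any of the 4 libraries was left out (adjusted p = 0.0949 to 0.189).

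The pre-B cell receptor list differed in both directions, with 3 of 20 tested members higher and 7 lower with TCF3-ZNF384 (50% called, against 10.1% over all genes) and a median of −0.23. The surrogate light chain genes Vpreb1, Vpreb2 and Igll1 were among those lower. Vpreb2 (chr16:17980514-17981366) was at 73.5 and 77.1 CPM with TCF3-ZNF384, 181 and 213 with TAF15-ZNF384, 268 and 361 with full-length ZNF384 and 282 and 266 with the empty vector. Both TCF3-ZNF384 libraries were below the other 6, and the difference between the fusions was −1.38 ± 0.14 (adjusted p = 1.72e-05). Vpreb2 and Vpreb1 are near-identical copies whose reads the counting could split, so neither is certain alone. Vpreb1 was at 330 and 329 CPM against 451 and 497 (−0.53 ± 0.10, adjusted p = 0.00367), and its call was lost without TCF3-ZNF384 replicate 1 (adjusted p = 0.0574) and without TAF15-ZNF384 replicate 2 (adjusted p = 0.0938).

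Igll1, the lambda 5 chain, was at 481 and 487 CPM with TCF3-ZNF384 against 734 and 828 with TAF15-ZNF384 (−0.69 ± 0.09, adjusted p = 0.000358). Over the shared empty vector Igll1 was −0.58 ± 0.09 with TCF3-ZNF384 and 0.11 ± 0.09 with TAF15-ZNF384. The kinase gene Blk was at 105 and 122 CPM against 178 and 198 (−0.73 ± 0.11, adjusted p = 0.000554). In the other direction, Cd79a, a signalling chain of the receptor, was higher by 0.43 ± 0.10, and its call was lost when any of the 4 libraries was left out (adjusted p = 0.091 to 0.132). Without TCF3-ZNF384 replicate 1 or TAF15-ZNF384 replicate 2 the list gave 3 members lower, and 5 without either other library; each of these fits gave 1 member higher.

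**Figure D2:**
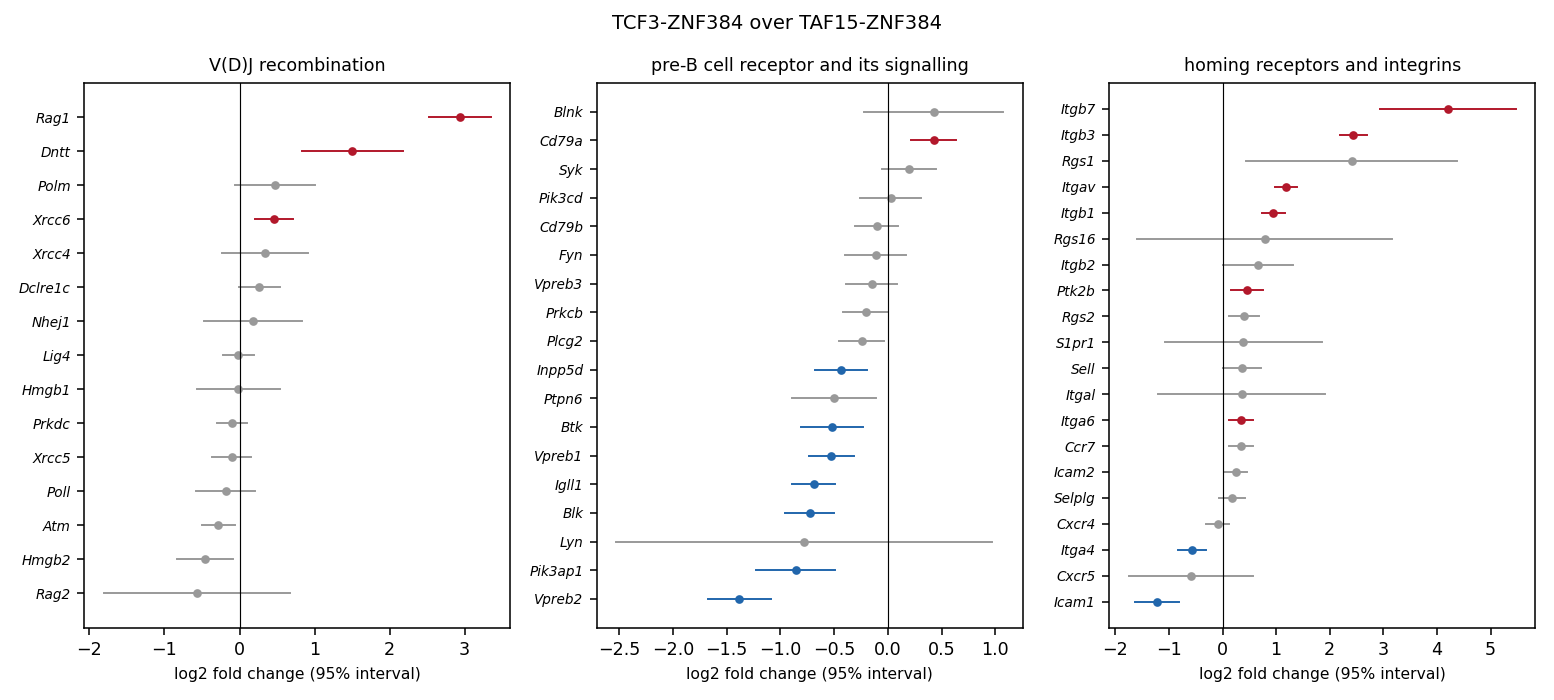
Log2 fold change of TCF3-ZNF384 over TAF15-ZNF384 with its 95% interval for the tested members of 3 lists, sorted by value; 2 members of the pre-B cell receptor list are not drawn. Red members were higher, blue lower and grey not called; Rag1, Itgb7 and Itgb3 lie farthest to the right among called members and Vpreb2 farthest to the left.

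Of 20 tested homing receptors and integrins, which hold cells to matrix and to other cells, 6 were higher with TCF3-ZNF384 and 2 lower (40% called, against 10.1% over all genes), with a median of 0.38. Itgb3, the beta 3 chain (chr11:104469370-104531790), had the smallest adjusted p of all genes and was at 132 and 128 CPM with TCF3-ZNF384, 25.3 and 22.6 with TAF15-ZNF384, 4.38 and 4.32 with full-length ZNF384 and 3.29 and 4.23 with the empty vector. The TCF3-ZNF384 values lay above the TAF15-ZNF384 values, and those above all controls. The fusions differed 5.41-fold (2.44 ± 0.12, adjusted p = 9.82e-08). Its partner Itgav, with which it forms the vitronectin receptor, was at 843 and 836 CPM against 389 and 347 (1.19 ± 0.10, adjusted p = 3.08e-06). An opposite-strand gene overlaps exons of Itgav.

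Itgb7, the beta chain of a gut homing integrin, was at 5.61 and 4.52 CPM against 0.326 and 0.212 (4.20 ± 0.59, adjusted p = 0.000452), and Itgb1, the common beta 1 chain, at 140 and 142 CPM against 73.2 and 73.2 (0.95 ± 0.10, adjusted p = 3.72e-05). Icam1, a ligand of the integrin LFA-1, was lower at 4.88 and 7 CPM against 15.3 and 13.1 (−1.22 ± 0.19, adjusted p = 0.001). Itga4, the alpha 4 chain, was lower by a log2 difference of −0.56 ± 0.12, and its call was lost in 3 of the 4 fits that left out a library, at adjusted p = 0.117 without TCF3-ZNF384 replicate 2 and 0.0587 and 0.107 without TAF15-ZNF384 replicate 1 and 2. The list gave 4 members higher with any of the 4 libraries left out and 10 with total-count scaling; 1 member was lower without TCF3-ZNF384 replicate 2 or either TAF15-ZNF384 library.

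A list of 10 genes known from patient leukaemias with a ZNF384 fusion held 4 genes that could be tested. Of these, 2 were higher with TCF3-ZNF384 (50% called, against 10.1% over all genes), and 4 genes are too few to describe the list. Il2ra, which encodes CD25, was at 172 and 164 CPM with TCF3-ZNF384, 36.5 and 29.8 with TAF15-ZNF384, 10.7 and 15.5 with full-length ZNF384 and 14.5 and 8.79 with the empty vector (2.34 ± 0.24 between the fusions, adjusted p = 0.000577). Flt3, a receptor kinase gene of early progenitors, was at 18.4 and 19.8 CPM against 4.35 and 4.65 (2.09 ± 0.19, adjusted p = 1.06e-05). Neither gene overlapped between the fusions, as was also the case for 57.2% of all genes tested. The cytokine gene Clcf1 averaged 8.05 CPM with TCF3-ZNF384 and 4.29 with TAF15-ZNF384 and did not pass the test (0.93 ± 0.34, adjusted p = 0.101). The inhibitory receptor gene Btla was at 0.737 CPM on average with TCF3-ZNF384 and 0.802 with TAF15-ZNF384.

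E proteins are held in check by Id proteins, which dimerise with them and cannot bind DNA. In this list of 13 tested genes 1 was higher and 1 lower with TCF3-ZNF384, or 15.4% called, which is near the 10.1% over all genes. Tcf4, the gene of the E protein E2-2, was at 141 and 125 CPM with TCF3-ZNF384 against 55.1 and 55.6 with TAF15-ZNF384 (1.26 ± 0.13, adjusted p = 2.6e-05). Id3 was at 19.5 and 24.5 CPM against 41.8 and 42.1 (−0.92 ± 0.14, adjusted p = 0.000713). Both calls held in every fit that left out a library.

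Of 24 tested B lineage transcription factor genes, 2 were higher and 2 lower with TCF3-ZNF384, or 16.7% called, against that same share. Foxo1, a factor that drives Rag gene expression, was at 226 and 224 CPM against 142 and 109 (0.84 ± 0.12, adjusted p = 0.000409). With the empty vector Foxo1 was at 192.5 and 189.1 CPM. Over that control it was 0.24 ± 0.11 with TCF3-ZNF384 (adjusted p = 0.123) and −0.60 ± 0.12 with TAF15-ZNF384 (adjusted p = 0.00436), so the TAF15-ZNF384 value was the one that stood apart. Lef1, a partner of beta-catenin, was at 41.3 and 41.9 CPM against 70.1 and 68.8 (−0.74 ± 0.10, adjusted p = 0.000482), and the repressor gene Gfi1 at 6.90 and 7.97 CPM against 15.1 and 14.7 (−0.99 ± 0.15, adjusted p = 0.000699). Sox4 was higher by 0.56 ± 0.10 and missed the threshold without TCF3-ZNF384 replicate 2 (adjusted p = 0.0503) and without TAF15-ZNF384 replicate 2 (adjusted p = 0.0552). Pax5 and Pou2af1, which are central to B cell identity, did not pass, at −0.13 ± 0.09 and 0.06 ± 0.09.

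Calcrl, the G protein-coupled receptor for the peptides CGRP and adrenomedullin, was at 297 and 274 CPM with TCF3-ZNF384, 82.1 and 75.9 with TAF15-ZNF384, 134 and 118 with full-length ZNF384 and 87.6 and 94.3 with the empty vector. It was raised with TCF3-ZNF384 against TAF15-ZNF384 (1.85 ± 0.11, adjusted p = 2.03e-07), and TAF15-ZNF384 differed from the empty vector by −0.20 ± 0.11 (adjusted p = 0.237). Ramp1, the accessory chain that makes Calcrl a CGRP receptor, went the other way at 14.8 and 13.1 CPM with TCF3-ZNF384, 36.1 and 45.4 with TAF15-ZNF384, 38.2 and 40.1 with full-length ZNF384 and 45.5 and 38.3 with the empty vector (−1.55 ± 0.14, adjusted p = 9.73e-06). Both TCF3-ZNF384 libraries were below the other 6 for Ramp1. The other accessory chains, Ramp2 and Ramp3, picked after their values were seen, had at most 2 counts in any fusion library and were too low to test.

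**Figure D3:**
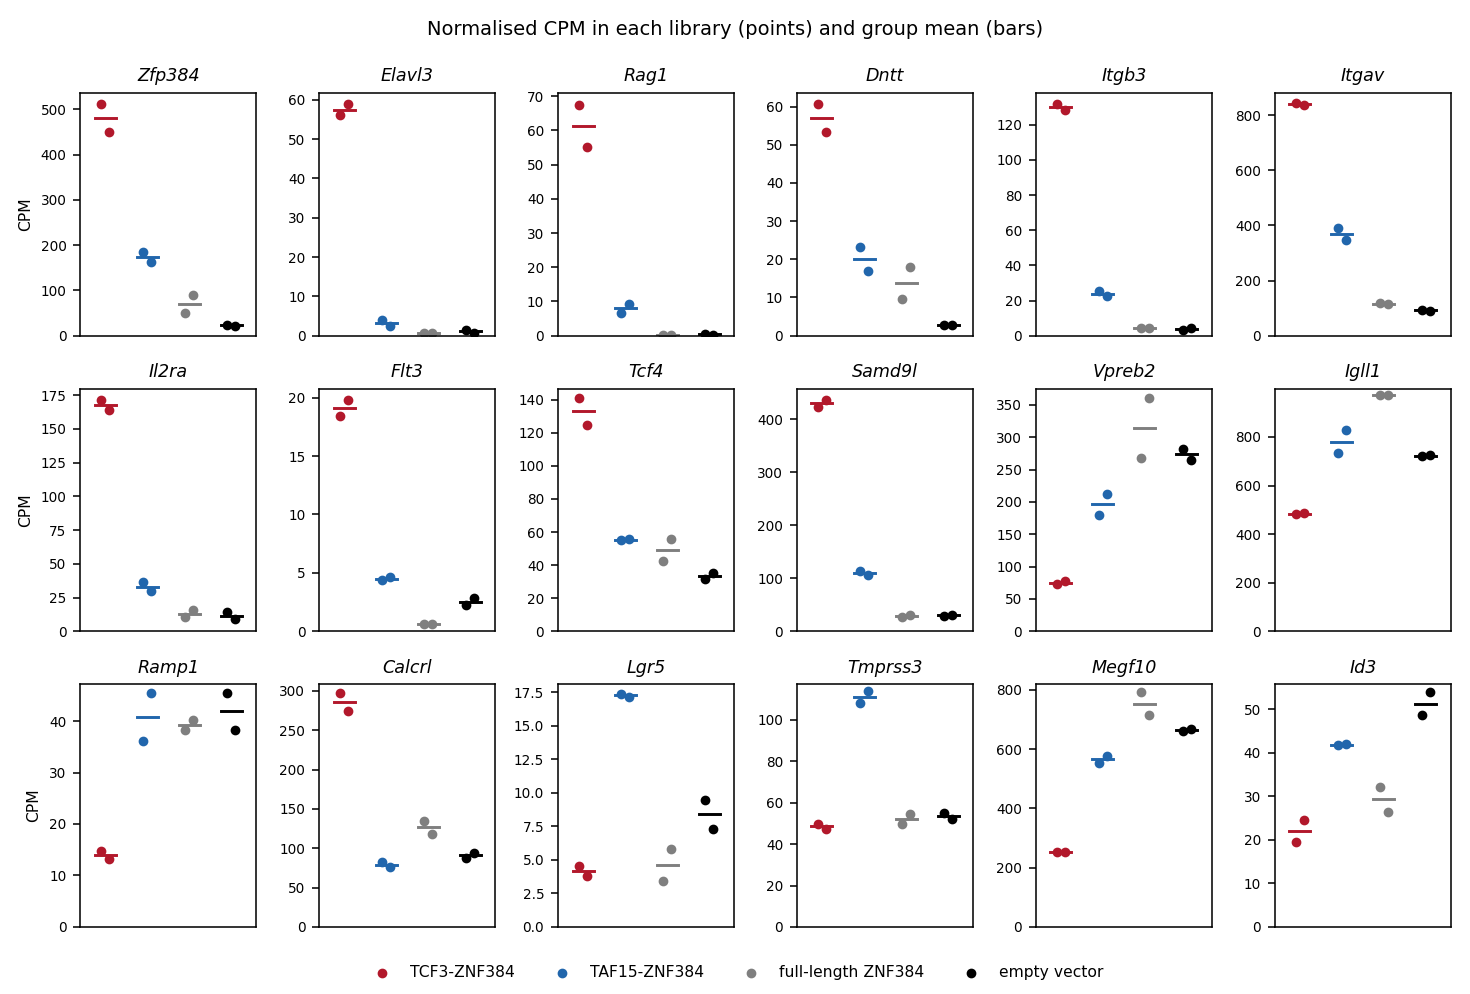
CPM in each library for 18 genes; points are libraries, short bars group means, and the groups run from TCF3-ZNF384 and TAF15-ZNF384 to full-length ZNF384 and the empty vector. Each panel has its own axis from 0. In Lgr5 and Tmprss3 the TAF15-ZNF384 libraries are the highest, and in Ramp1, Vpreb2 and Megf10 the TCF3-ZNF384 libraries are the lowest.

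In some genes TAF15-ZNF384 stood apart from the empty vector as much as or more than TCF3-ZNF384 did. Lgr5, a receptor for R-spondins known from intestinal stem cells, was at 4.51 and 3.77 CPM with TCF3-ZNF384, 17.4 and 17.1 with TAF15-ZNF384, 3.39 and 5.81 with full-length ZNF384 and 9.50 and 7.30 with the empty vector. Between the fusions it differed by −2.08 ± 0.25 (adjusted p = 0.000129), and over the shared empty vector by −1.04 ± 0.25 with TCF3-ZNF384 (adjusted p = 0.00549) and 1.04 ± 0.22 with TAF15-ZNF384 (adjusted p = 0.00831). Tmprss3, a membrane serine protease gene, was at 49.7 and 47.3 CPM with TCF3-ZNF384, 108 and 114 with TAF15-ZNF384, against 55.2 and 52.0 with the empty vector (−1.20 ± 0.10 between the fusions, adjusted p = 4.95e-06). Nov, a secreted CCN family protein gene picked after its values were seen, was at 33.5 and 27.6 CPM with TCF3-ZNF384, 6.63 and 7.62 with TAF15-ZNF384, against 18.3 and 19.8 with the empty vector (2.09 ± 0.19 between the fusions, adjusted p = 1.08e-05).

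Further genes were lower with TCF3-ZNF384. Megf10, an engulfment receptor gene, was at 252 and 252 CPM with TCF3-ZNF384 against 555 and 577 with TAF15-ZNF384 (−1.17 ± 0.09, adjusted p = 3.27e-06), and Lrp4, the agrin receptor gene, at 119 and 124 CPM against 276 and 270 (−1.17 ± 0.11, adjusted p = 9.73e-06). Cd248, the surface protein endosialin, was at 32.8 and 39.8 CPM against 85.0 and 94.2 (−1.30 ± 0.11, adjusted p = 6.38e-06). The RNA-binding protein gene Cpeb1 and the phosphatase gene Ubash3a were lower by log2 differences of −1.35 ± 0.14 and −1.11 ± 0.11. Prkca, which encodes protein kinase C alpha and overlaps Apoh on the opposite strand, was at 293 and 320 CPM against 606 and 612 (−0.99 ± 0.10, adjusted p = 1.49e-05). Ankrd45, an ankyrin repeat gene, had the lowest value by the size rule, with 0.920 and 1.94 CPM against 7.50 and 9.42 (−2.47 ± 0.38, adjusted p = 0.00103); without TCF3-ZNF384 replicate 2 the difference was −3.20.

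Replication-dependent histone genes, which are transcribed in S phase and lack poly(A) tails, were lower as a group with TCF3-ZNF384. Of 55 tested genes 48 (87.3%) were lower and 0 higher, against 4.17 and 5.91% over all genes. The median was −0.60, against 0.00 over all genes. Their summed level was 46500 and 51700 CPM with TCF3-ZNF384, 70300 and 78800 with TAF15-ZNF384, 75600 and 67300 with full-length ZNF384 and 89600 and 87900 with the empty vector. Both TCF3-ZNF384 libraries were below the other 6. Hist1h1a, a linker histone gene, was at 2117 and 2331 CPM against 3513 and 3756 (−0.71 ± 0.10, adjusted p = 0.00038), and Hist1h2bp at 89.3 and 101 CPM against 159 and 182 (−0.84 ± 0.11, adjusted p = 0.000282). Histone genes are near-identical copies, so single genes are uncertain.

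The number of histone genes called lower was 23 and 44 with TCF3-ZNF384 replicate 1 or 2 left out, 43 and 14 with TAF15-ZNF384 replicate 1 or 2 left out, and 44 with total-count scaling. The share of the 5 abundant non-coding genes moved with the groups, and 49 histone genes were lower when those genes were left out. Of 31 DNA replication genes 14 were lower and 1 higher (48.4% called, against 10.1% over all genes), with a median of −0.41; the number lower was 2 and 7 when TCF3-ZNF384 replicate 1 or 2 was dropped, 3 and 2 when TAF15-ZNF384 replicate 1 or 2 was dropped, and 8 with total-count scaling. Uhrf1, which guides maintenance methylation at the replication fork, was at 59.0 and 60.7 CPM against 100 and 88.8 (−0.66 ± 0.10, adjusted p = 0.000896), and its call held in every fit that left out a library. Mcm5, a helicase subunit gene, was at 76.6 and 88.1 CPM against 135 and 135 (−0.71 ± 0.13, adjusted p = 0.00242) and missed the threshold without TCF3-ZNF384 replicate 1 (adjusted p = 0.0562). Of 27 mitosis genes 3 were lower and 0 higher (11.1% called, against 10.1% over all genes either way and 4.17% lower). Their median was −0.27, with 25 values below 0 and 2 above. Their summed level was 5930 and 5540 CPM with TCF3-ZNF384 against 6970 and 7170 with TAF15-ZNF384. The call of Mki67, at −0.36 ± 0.10, was lost when any of the 4 libraries was left out, with differences of −0.39 to −0.33. The part of cell cycle phase in these values was not tested.

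**Figure D4:**
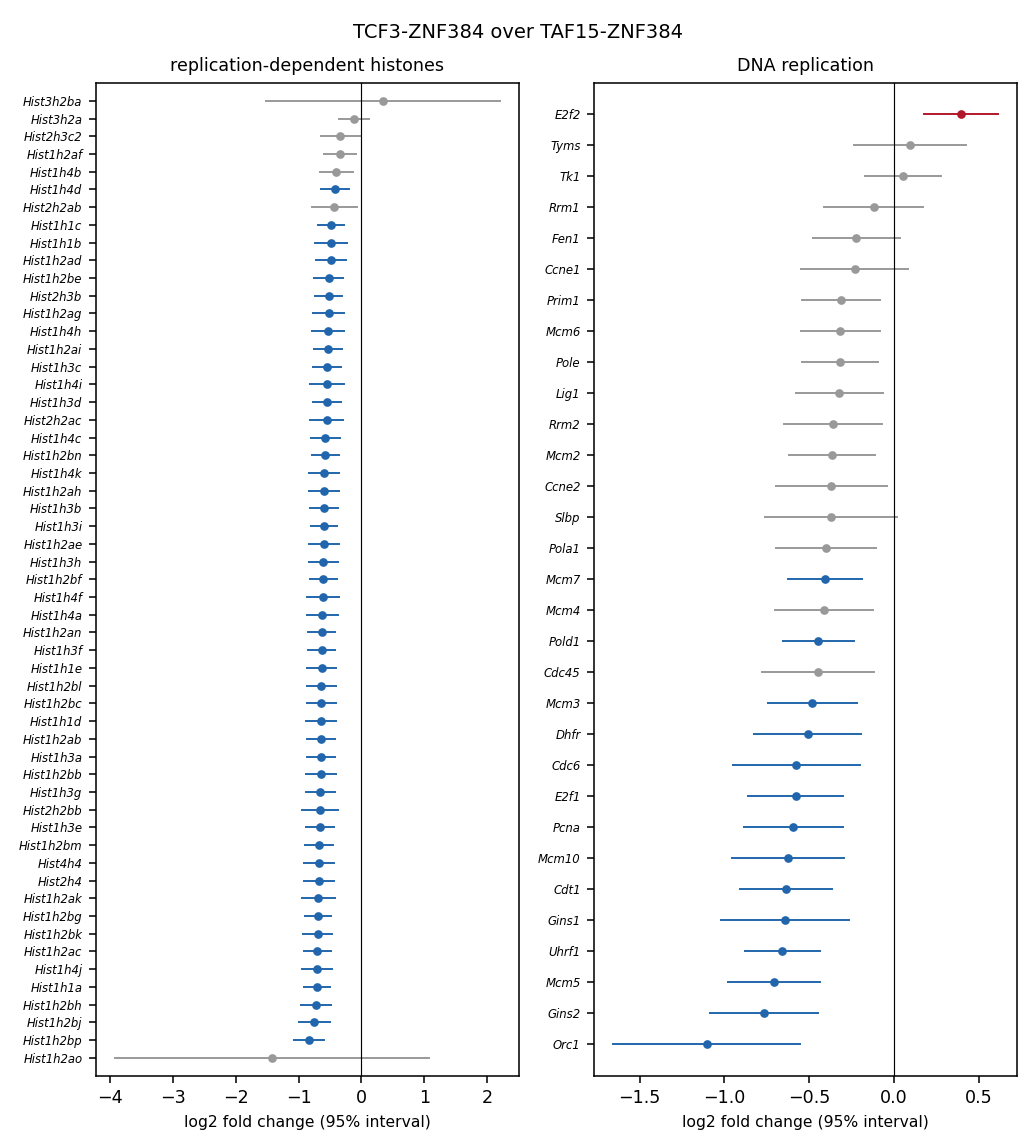
Log2 fold change of TCF3-ZNF384 over TAF15-ZNF384 with its 95% interval for replication-dependent histone genes (left) and DNA replication genes (right). Blue genes were lower, red higher and grey not called; 48 of 55 histone genes lie below 0 and are called, near a median of −0.60.

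The integrated stress response raises amino acid supply when cells run short. Of 25 tested genes of the integrated stress response and serine synthesis, 10 were lower and 0 higher with TCF3-ZNF384 (40% called, against 10.1% over all genes), with a median of −0.43. The glutamine transporter gene Slc1a5 was at 70.4 and 76.6 CPM against 139 and 138 (−0.91 ± 0.13, adjusted p = 0.000554), and Shmt2, which feeds one-carbon metabolism in mitochondria, at 34.2 and 37.0 CPM against 55.5 and 57.8 (−0.66 ± 0.12, adjusted p = 0.00264). Mthfd1l, of the same pathway, was at 23.1 and 20.6 CPM against 34.2 and 39.8 (−0.77 ± 0.13, adjusted p = 0.00129). The number lower was 4 and 6 when TCF3-ZNF384 replicate 1 or 2 was dropped, 5 and 4 when TAF15-ZNF384 replicate 1 or 2 was dropped, and 7 with total-count scaling.

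In the MYC and ribosome biogenesis list, 7 of 32 genes were lower and 0 higher (21.9% called, against 10.1% over all genes), with a median of −0.29; 1 was lower when any of the 4 libraries was left out or with total-count scaling. Mycn, a MYC family gene, was at 35.2 and 43.9 CPM with TCF3-ZNF384 against 71.0 and 76.3 with TAF15-ZNF384 (−0.89 ± 0.12, adjusted p = 0.000375), and its call held in each of those fits. Of 78 cytosolic ribosomal protein genes 1 was lower (1.28%, against 4.17% over all genes). Even so, 73 had values below 0 and 5 above, with a median of −0.23. In a fit of the 4 fusion libraries alone 38 were lower, and that fit called 1237 of its 11607 tested genes lower. Bcl2, the survival gene, was the only call among 18 BCL2 family and caspase genes (5.56%, against 10.1% over all genes). It was at 53.3 and 48.7 CPM against 90.8 and 99.1 (−0.90 ± 0.11, adjusted p = 0.000156).

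NF-kB genes gave 4 of 14 higher and 0 lower (28.6% called, against 10.1% over all genes), of which Birc3, an inhibitor of apoptosis, was at 99 and 93.4 CPM against 56.9 and 51.7 (0.82 ± 0.10, adjusted p = 0.000126) and was the one call that remained when any of the 4 libraries was left out. The cytokine gene Il10, in the same list, had 67 counts over the TCF3-ZNF384 libraries against 2 over the TAF15-ZNF384 libraries, a ratio of 21.2 with an exact binomial interval of 5.65 to 179; its call was lost when any of the 4 libraries was left out (adjusted p = 0.0529 to 0.0963). Of 11 tested DNA methylation and deamination genes 3 were higher and 2 lower (45.5% called, against 10.1% over all genes), and none was lower when any of the 4 libraries was left out. Among them Dnmt3b, a de novo methyltransferase gene, was at 13.4 and 13.6 CPM against 5.65 and 4.87 (1.36 ± 0.21, adjusted p = 0.000762), and Tet2, a 5-methylcytosine oxidase gene, at 27.4 and 29.7 CPM against 14.2 and 17.1 (0.87 ± 0.13, adjusted p = 0.000896).

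In the smaller lists, Klf3, a Kruppel-like repressor gene, was at 9.76 and 9.58 CPM against 2.72 and 1.27 (2.28 ± 0.34, adjusted p = 0.000713, with 2.93 without TAF15-ZNF384 replicate 1), and Cd55, a complement regulator on the cell surface, at 29.7 and 26.0 CPM against 13.4 and 13.3 (1.06 ± 0.15, adjusted p = 0.000601). The next 4 genes were picked after their values were seen. Rasgrp1, an activator of Ras, was at 292 and 286 CPM against 79.5 and 69.7 (1.95 ± 0.15, adjusted p = 4.95e-06), and the chromatin organiser gene Satb1 at 137 and 138 CPM against 41.4 and 45.8 (1.66 ± 0.13, adjusted p = 2.61e-06). Dgka, a diacylglycerol kinase gene, and Kcnn4, a calcium-activated potassium channel gene, were higher by 1.63 ± 0.12 and 1.23 ± 0.10.

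No member passed the test among 18 heat shock, 5 MHC class II and 9 mature B cell genes. Of 22 interferon-response genes 1 was higher and 1 lower, but 0 either way when any of the 4 libraries was left out, and 1 of 20 MHC class I genes, H60b, was higher. Among 21 genes of the IL-7 receptor and JAK-STAT signalling 1 was higher and 0 lower, which is near the share over all genes. Over all genes 10.1% were called, and the cell type lists that follow are small, so their calls describe single genes and not the lists. Of the lists of other cell types, 0 of 4 myeloid and 0 of 5 stromal and endothelial genes passed. In the T and NK cell list 1 of 9 genes, Bcl11b, was higher (0.49 ± 0.12, adjusted p = 0.0174), a call lost when any of the 4 libraries was left out. The summed T and NK list was at 171 and 183 CPM with TCF3-ZNF384 against 172 and 170 with TAF15-ZNF384. Of 4 tested erythroid and megakaryocyte genes 1 was higher and 1 lower, and the summed list was at 228 and 224 CPM against 235 and 255. The erythropoietin receptor gene Epor had 37 counts over the TCF3-ZNF384 libraries against 1 over the TAF15-ZNF384 libraries (ratio 23.4, exact binomial interval 3.95 to 951), and its call was lost when any of the 4 libraries was left out (adjusted p = 0.0847 to 0.217). Klf1, an erythroid transcription factor gene, was at 0.552 and 1.24 CPM against 3.80 and 2.33 (−1.68 ± 0.41, adjusted p = 0.0185); the call was lost without replicate 1 of TCF3-ZNF384 (−1.30, adjusted p = 0.142) or of TAF15-ZNF384 (−1.28, adjusted p = 0.192), and without TCF3-ZNF384 replicate 2 the difference was −2.47. Of 7 stem and progenitor genes Flt3 was higher and Mycn lower, both given above. The plasma cell list gave 1 of 7 higher, Prdm1, at 4.23 and 5.01 CPM against 2.07 and 0.952 (adjusted p = 0.0186); this call was lost without TCF3-ZNF384 replicate 1 or 2 (adjusted p = 0.0756 and 0.188) and without TAF15-ZNF384 replicate 2 (adjusted p = 0.198).

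**Figure D5:**
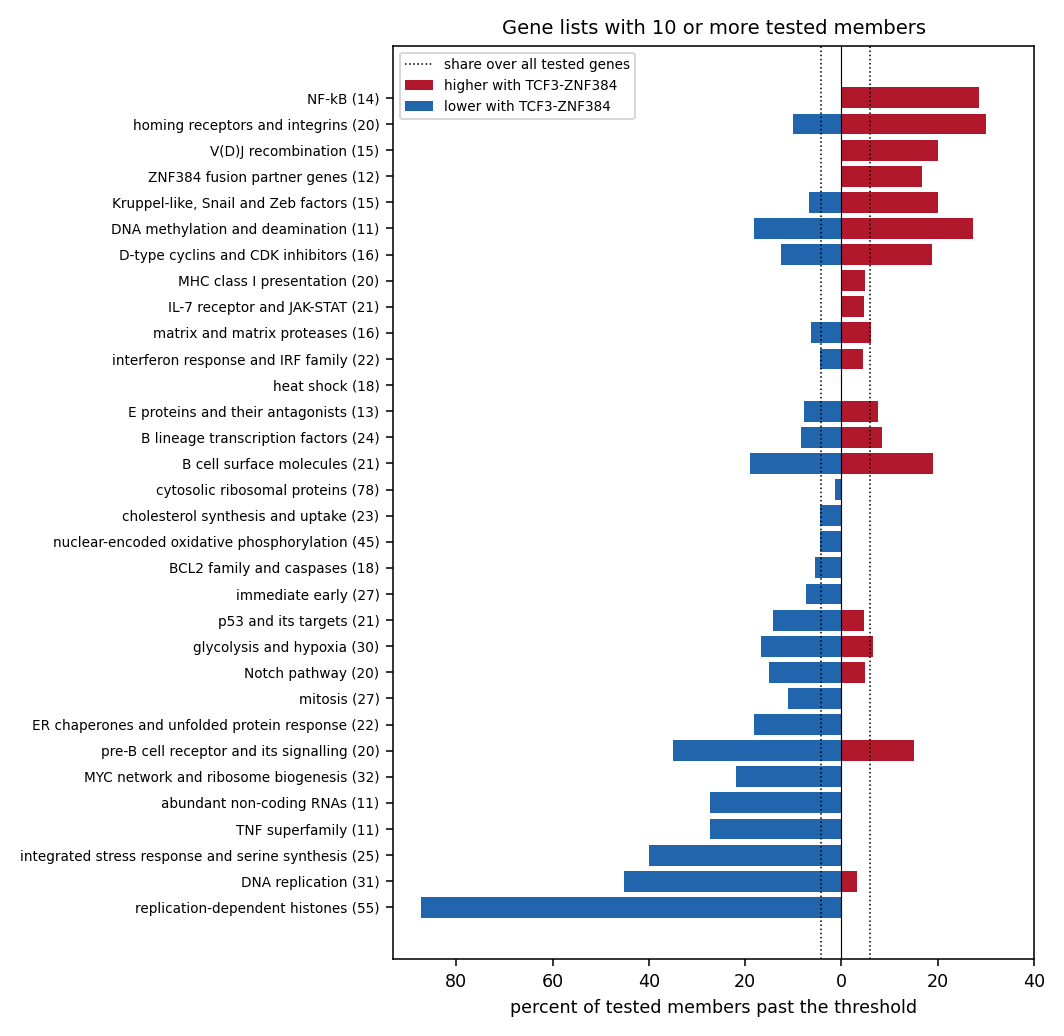
Share of tested members called higher (right, red) and lower (left, blue) with TCF3-ZNF384 for each gene list with 10 or more tested members, whose number stands in brackets. Dotted lines mark the shares over all genes, 5.91% higher and 4.17% lower; the histone bar reaches 87.3% on the lower side.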

How the data were processed

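RNA was measured in 8 libraries of 4 groups of 2, and 4 of them were compared here. The authors deposited raw counts per gene for 32499 genes, made with HTSeq 0.6.1p1 on mm9, per the submitters' processing notes. The aligner, annotation and strand setting are not given in the sources used here. The analysis used edgeR 4.0.16 under R 4.3.3. Expression filtering by group kept 12970 genes, TMM scaled the libraries, and a robust quasi-likelihood model with 1 term per group was fitted to all 8 libraries (4 residual degrees of freedom, biological coefficient of variation 0.0958). CPM use TMM-scaled totals, log2 fold changes are given ± SE, and adjusted p is Benjamini-Hochberg over all tested genes, 2-sided, at 0.05. The replicates are described as biological, and p-values measure the spread between these libraries. In simulated data of 12725 genes, 49 or 50 genes were changed at each log2 size of −2, −1, 1 and 2, in TCF3-ZNF384 alone. The other groups shared 1 mean per gene. Of the changed genes, 76% of those set 2-fold higher and 65.3% of those set 2-fold lower were called, and 7.23% of calls were false. The data hold many more differences than that, so 7.23% is not the false share of the 1308 calls.

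Members, the 42 gene lists and tests were chosen with earlier results of these data known. Genes named were Zfp384, Taf15, Tcf3 and Cdkn2a; the 15 largest differences per direction with at least 5 CPM in the higher fusion and no overlap; the 10 smallest adjusted p per direction; up to 4 called per direction and 2 uncalled members of each list; a short set of genes known from the series; and those said to be picked after their values were seen. The text prints part of them, and a few are not reported here. Coordinates are those of mm9 in GENCODE vM1, matched by symbol for 11603 tested genes. Alternatives were DESeq2 1.42.0 size factors and its Wald test, total-count scaling, limma-voom (limma 3.58.1), other filters, a fit of the 4 fusion libraries, a replicate block, removal of 5 non-coding genes, thinning, and leaving out each library, whose lone partner is then assumed to vary like the other groups.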

Additional observations from a re-analysis of the deposited data

How the results depend on the processing

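The main limit is 2 libraries a side. With 1 library left out, the genes called ranged from 371 to 646 against 1308, those higher from 242 to 372 against 767, those lower from 129 to 290 against 541, and those at least 2-fold apart from 167 to 240 against 272. Total-count scaling gave 1989 called, 1693 higher and 296 lower, and a fit of the 4 fusion libraries alone gave 2548, of which 1311 were higher and 1237 lower, and both kept under 1.5 times the number at least 2-fold apart (385 and 330). The replicate block gave 1523 called genes. Same-numbered libraries of the fusions correlated at 0.027 in their deviations. Over all pairs of groups the values ran from 0.014 to 0.225, the highest between TCF3-ZNF384 and the empty vector. These values do not settle whether the numbers pair the samples. The other alternatives stayed within 1.5 times each count, from 1018 called with limma-voom to 1677 with no filter on low counts. None reversed a called gene, but they reused the same libraries, so a reversal was unlikely. Among 254 named genes, limma-voom and total-count scaling each lost 24 calls, and leaving out a library lost 57 to 78. Only named genes that were called could lose a call, and many of the 254 were not called, so 254 is not the base of these losses. The cause of the differences between settings was not tested. Depth limits calls among genes with few counts: the median SE was 0.536 under 5 CPM and 0.104 above 100 CPM.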
